A study of Mus musculus with 6 samples.

Results

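The genes described here are 41 genes of DNA replication and S phase, followed through the host stem and progenitor cells of leukemic and control bone marrow. They were taken by gene symbol from the list of genes quantified in each library, and all 41 of the 41 symbols were found among 32285 genes. By role they comprised 6 subunits of the MCM helicase, 4 genes of origin licensing and entry into S phase, 2 genes of helicase activation, 7 genes of the polymerases and the sliding clamp, 3 genes of nucleotide supply, 3 genes of fork protection and the checkpoint, 5 repair genes, 8 genes of chromatin and histones, and 3 others. The cells were lineage-negative, cKit-positive, Sca1-positive (LSK) cells, the bone marrow fraction that holds hematopoietic stem cells (HSCs) and multipotent progenitors (MPPs), sorted as CD45.1+ host cells on day 21. The hosts in both groups were female C57BL/6J mice that carry CD45.1, 8 to 12 weeks old and not conditioned before injection. The AML group had received 1000000 cells of C1498, a transplantable acute myeloid leukemia line of CD45.2 origin, and the PBS group had received phosphate-buffered saline alone. A single transplanted line stands for leukemia in this model, and the sorted cells are the host's own.

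Replication begins when the MCM2-7 helicase is loaded on origins with the help of Cdc6, while geminin (Gmnn) keeps origins from being loaded again. Cdc45 and the GINS complex then activate the helicase, Pola1 and Prim1 lay down primers, and PCNA, loaded on DNA by replication factor C, holds the replicative polymerases on their template. Ribonucleotide reductase (Rrm1 and Rrm2) and thymidylate synthase (Tyms) supply the nucleotides, and Uhrf1, Hells and the chromatin assembly factor subunit Chaf1b restore methylation and chromatin behind the fork. Many of these genes are transcribed from late G1 onwards by E2F factors. In bone marrow, HSCs are mostly out of cycle and MPPs divide more often, so this set of transcripts is commonly read as a measure of how many cells of a population are replicating.

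The rule that chose the genes used no sequence, so their promoters were searched for E2F words. RefSeq promoters (GRCm38.p6, 250 bases before to 50 bases after a transcription start) were at hand for 31 of the 41 genes. No entry was at hand for Mcm4, Gmnn, Ccne2, Gins2, Rfc2, Dscc1, Tipin, Usp1, Exo1 or Atad2. An E2F word (TTTCCCGC, TTTCGCGC, TTTGCCGC or TTTGGCGC, on either strand) stood in the promoters of 14 of the 31 genes, or 45.2%, against 704 of all 27025 genes with a promoter, or 2.61%. The 14 genes were Mcm3, Mcm5, Mcm6, Mcm7, Cdc6, Dtl, Pola1, Pold3, Clspn, Uhrf1, Hells, Cdca7, Ubr7 and Casp8ap2. A CCAAT box (CCAAT, either strand) stood in 22 of the 31 genes, or 71.0%, against 41.1% of all genes. The CHR element (TTTGAA, either strand), a word of promoters active in G2 and mitosis, stood in 6 of the 31, or 19.4%, close to the 20.2% of all genes. A word in a promoter is a description of the letters and not a site shown to be bound. The stretches below are examples: Mcm5 and Mcm6 for the helicase, and Hells and Pola1 for genes that stood highest in an AML library. Each is 160 bases, read 5′ to 3′ on the strand of the gene, with the E2F words in capitals. In Mcm5 and in the first block of Mcm6, 2 words on opposite strands overlap.
Mcm5, chr8:75109349-75109508, plus strand: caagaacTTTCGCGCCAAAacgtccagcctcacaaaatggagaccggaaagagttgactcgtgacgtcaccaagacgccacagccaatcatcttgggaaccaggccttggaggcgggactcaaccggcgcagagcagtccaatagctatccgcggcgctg
Mcm6, chr1:128359706-128359865, minus strand: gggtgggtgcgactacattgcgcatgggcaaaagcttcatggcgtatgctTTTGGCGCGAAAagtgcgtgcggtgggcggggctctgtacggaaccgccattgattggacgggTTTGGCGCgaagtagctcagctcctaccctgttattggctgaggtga
Hells, chr19:38930830-38930989, plus strand: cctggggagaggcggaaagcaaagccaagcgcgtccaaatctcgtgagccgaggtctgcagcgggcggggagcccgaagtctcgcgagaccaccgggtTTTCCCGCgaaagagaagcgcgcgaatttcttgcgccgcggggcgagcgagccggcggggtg
Pola1, chrX:93632156-93632315, minus strand: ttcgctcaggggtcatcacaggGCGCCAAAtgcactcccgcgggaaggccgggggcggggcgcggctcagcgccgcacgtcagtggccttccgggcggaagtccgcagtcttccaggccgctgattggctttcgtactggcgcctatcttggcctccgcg

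The authors' cell table named 16822 cells from 5 of the 6 libraries, 3 PBS (6838, 934 and 4398 cells) and 2 AML (693 cells in replicate 1 and 3959 in replicate 3), and no cell of AML replicate 2. These cells held 94812773 unique molecular identifiers (UMIs), of which 264262 fell on the 41 genes, between 1121 for Exo1 and 18378 for Rfc2. Library totals ran from 1945659 UMIs in AML replicate 1 to 32123508 in PBS replicate 1, and median UMIs per cell from 2393 in AML replicate 1 to 9586 in PBS replicate 2. AML replicate 1 stood apart from the rest: its log expression correlated at 0.916 to 0.942 with the other libraries, which correlated at 0.972 to 0.984 with each other. It had also the highest share of MPP-2 cells (46.9%, against 26.3% to 31.8% elsewhere) and only 3.32% HSCs. Any 2 libraries shared at most 12 cell barcodes. Kit and Ly6a, the genes of cKit and Sca1, were found in every library at 79.7 to 104 CPM and 100.6 to 203 CPM, the count of a gene scaled to 1000000 UMIs of the library. The labels number the libraries only as samples, so the tests below measure the spread between these libraries. Among the 41 genes, 15 overlap an antisense gene and 7 overlap a gene on the same strand, and Pcna, Tyms and Nasp have named pseudogenes, so that part of their reads could have been counted elsewhere.

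Across all LSK cells the 41 genes together made up 2960, 2630 and 2478 CPM of PBS replicates 1 to 3, and 3311 and 2863 CPM of AML replicates 1 and 3. AML replicate 1 lay above all PBS libraries and AML replicate 3 within their range. By class, the summed level averaged over 5 libraries was 1902 ± 323 CPM (SD) in HSCs, 2425 ± 434 in MPP-4, 2745 ± 589 in MPP-3 and 3477 ± 266 in MPP-2 cells. HSCs were lowest in all 5 libraries. MPP-2 cells were highest in 4 of 5, and in AML replicate 1 MPP-3 cells stood at 3427 CPM against 3369 in MPP-2. The MPP-3 and MPP-4 ranges overlapped (1947 to 3427 and 1932 to 3112 CPM). By library the authors called 87.1% to 93.9% of MPP-2 cells S or G2M, against 12.1% to 43.5% of HSCs. In cells called G1 the sum was 1149 ± 107 CPM in HSCs and 1742 ± 169 in MPP-2 cells (SD, n = 4). It was 1064 ± 433 in MPP-3 and 1484 ± 380 in MPP-4 cells (SD, n = 5). The MPP-3 value includes the immunoglobulin-rich cluster 6, of which 91.5% was called G1. The phase was called from genes of this kind. The authors named the classes from expression scores of the same cells, so class levels are given here as descriptions with no test.

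**Figure D1:**
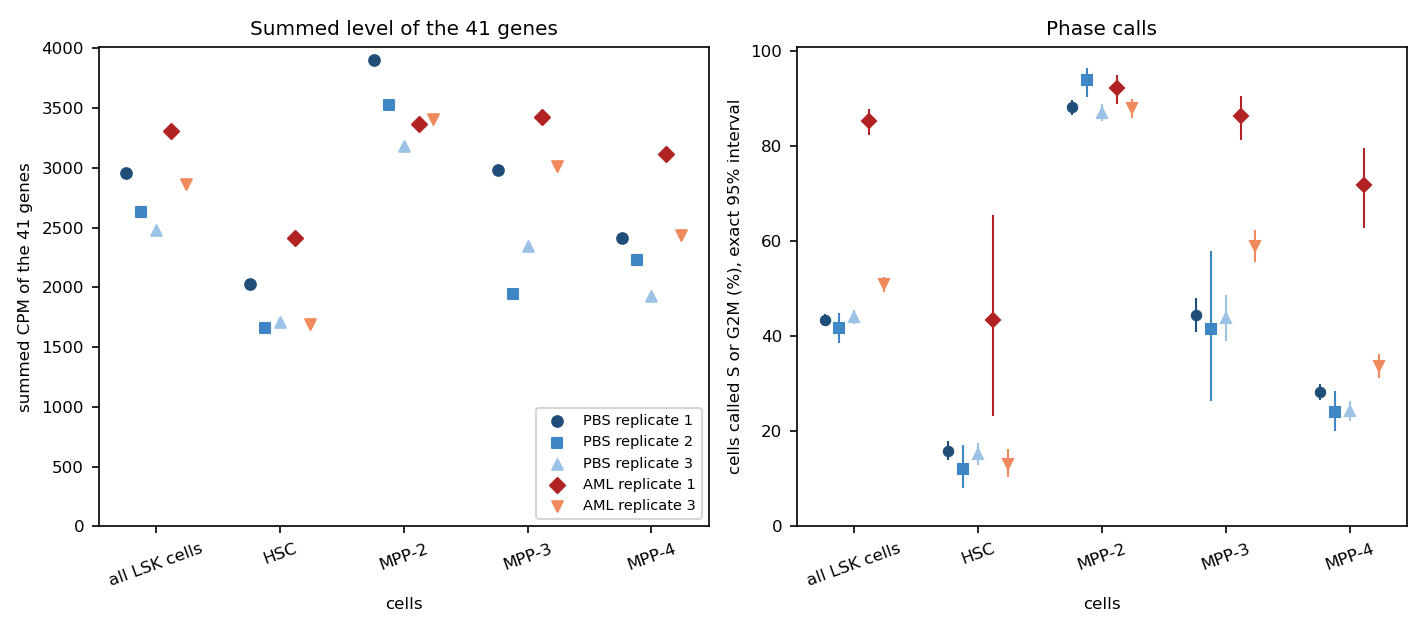
Left, summed CPM of the 41 genes in each library (symbols), for all LSK cells and for each class. Right, percent of the same cells called S or G2M in the authors' table, with exact 95% binomial intervals. MPP-2 cells reached 3185 to 3900 CPM and HSCs 1656 to 2415 CPM, and AML replicate 1 (dark red diamonds) had the highest share of cycling calls in all LSK cells, at 85.3%.

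The difference between MPP-2 cells and HSCs within a library, as log2(CPM + 1), had a median over the 41 genes of 0.96, against −0.21 over the 14364 genes tested. The level was higher in MPP-2 cells in every one of the 5 libraries for 29 of the 41 genes, where 11.3% of all genes tested were. It was higher in 4 of 5 for Mcm2, Cdc6, Ccne2, Gins2, Dscc1, Ung, Exo1, Uhrf1, Cdca7, Ubr7 and Casp8ap2, and in none for Chaf1b. Without AML replicate 1, whose HSC sum rested on 23 cells, the count was 38 of 41, against 16.9% of all genes. MPP-2 cells hold more UMIs per cell than HSCs. Among cells of 3000 to 5000 UMIs alone, in the 3 libraries that had 20 such cells of both classes, 40 of 41 genes were higher in MPP-2 cells in every library, where 17% of all genes were, and the median difference was 1.00.

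Among genes of nucleotide supply, Rrm2, the regulated small subunit of ribonucleotide reductase, was at 21.5, 7.41 and 8.17 CPM in PBS HSCs, 48.9 CPM (3 UMIs) in those of AML replicate 1 and 10.7 CPM in those of AML replicate 3. In MPP-2 cells it was at 145, 96.0 and 65.2 CPM in PBS and 64.3 and 118 CPM in AML. The classes did not overlap, and the median log2 difference of 2.85 was the largest of the 41 genes. Tyms, which makes thymidylate, was at 48.5 to 83.4 CPM in HSCs and 174 to 263 CPM in MPP-2 cells, with a median log2 difference of 1.96. Rrm1, the large reductase subunit, had a median difference of 1.47. Summed, the 3 genes stood at 113 ± 49.8 CPM in HSCs, 144 ± 34.0 in MPP-4, 239 ± 41.01 in MPP-3 and 388 ± 56.8 in MPP-2 cells (SD, n = 5). The MPP-4 range (98.7 to 194 CPM) lay within the HSC range (78.1 to 196 CPM). The top of the HSC range was AML replicate 1, with 23 HSCs.

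Ranked by single genes, those after Rrm2 were E2f8, a repressor among the E2F factors, and the repair gene Rad51ap1. E2f8 was at 3.42, 2.28 and 4.23 CPM in PBS HSCs and at 16.3 (1 UMI) and 5.55 CPM in those of AML. In MPP-2 cells it was at 24.0, 18.0 and 21.7 CPM in PBS and 20.7 and 22.2 CPM in AML, a median log2 difference of 2.12 with no overlap between the classes. Rad51ap1 was at 16.7, 10.3 and 15.8 CPM in the HSCs of PBS, 16.3 (1 UMI) and 17.9 CPM in those of AML, and at 87.8, 65.3, 63.7, 46.8 and 75.4 CPM in the MPP-2 cells of the same libraries. It did not overlap either (median 2.01). Clspn, the claspin adaptor of the replication checkpoint, followed at 2.00, ahead of Tyms.

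The licensing and entry genes were uneven. Gmnn had a median log2 difference between MPP-2 cells and HSCs of 1.71, and Ccne2, a cyclin of the G1 to S transition, of 1.42. Dtl, which directs PCNA-bound proteins to degradation, and Cdc6 differed less, by 0.59 and 0.53. Of the helicase activators, Cdc45 had a median difference of 1.67 and Gins2 of 1.06. Among genes of the polymerases and clamp, the flap endonuclease Fen1 led at 1.48, followed by the clamp loader gene Dscc1 at 1.29. Pola1 (0.97), Prim1 (0.91), Pcna (0.87) and Pold3 (0.85) were close to the median of the 41, and Rfc2, a subunit of replication factor C, was low at 0.44. The fork protein Tipin had 1.09 and the deubiquitinase Usp1 0.96.

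The 6 MCM subunits differed less between classes than most members, with median log2 differences between MPP-2 cells and HSCs of 0.30 (Mcm6), 0.39 (Mcm4), 0.41 (Mcm3), 0.52 (Mcm7), 0.60 (Mcm2) and 0.68 (Mcm5). Their sum was 331 ± 48.5 CPM in HSCs, 446 ± 110 in MPP-4, 421 ± 106 in MPP-3 and 450 ± 66.5 in MPP-2 cells (SD, n = 5). The spread between libraries exceeded the difference among the MPP classes, which could not be ordered by this sum. Mcm6 was highest in MPP-4 cells. It was at 125, 126 and 94.6 CPM in the MPP-4 cells of PBS and 194 and 122 CPM in those of AML, against 106, 119, 88.0, 120 and 95.8 CPM in the MPP-2 cells of the same libraries. It was higher in MPP-4 than in MPP-2 cells in all 5 libraries, as were 26.4% of all genes tested.

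A few members were almost level between HSCs and MPP-2 cells or went the other way. Chaf1b was at 47.6, 59.9 and 45.7 CPM in PBS HSCs and 65.3 (4 UMIs) and 37.6 CPM in those of AML, and at 45.1, 57.3, 31.4, 27.2 and 31.7 CPM in the MPP-2 cells of the same libraries. It was lower in MPP-2 cells in each library, as were 23.1% of all genes tested, with a median log2 difference of −0.24, a value near the middle of all genes tested (48th percentile), and the ranges of the classes overlapped. Ung, the uracil-DNA glycosylase, was at 29.1, 27.9 and 17.8 CPM in the HSCs of PBS, 0 UMIs in those of AML replicate 1 and 24.3 CPM in those of AML replicate 3. In MPP-2 cells it was at 30.2, 31.1, 18.1, 22.9 and 24.1 CPM, a median difference of 0.05. Its highest levels were in MPP-3 cells (28.9 to 58.3 CPM) and MPP-4 cells (27.4 to 45.9 CPM). Cdca7, a DNA-binding partner of Hells, was at 113, 82.1 and 115 CPM in the HSCs of PBS and 196 (12 UMIs) and 100.4 CPM in those of AML, and at 127, 95.7, 122, 180 and 126 CPM in the MPP-2 cells, a median difference of 0.16. The other chromatin genes lay between these and the top, from Ubr7 (0.22) and Hells (0.73) through the histone mRNA binding protein Slbp (0.96), the ATPase Atad2 (1.01) and the histone chaperone Nasp (1.03) to Uhrf1 (1.09). Of the repair genes, the exonuclease Exo1 had 1.50, the helicase Blm 1.27 and Wdr76 0.96, and of the remaining members Cenpu, a centromere protein, had 1.64 and Casp8ap2, needed for histone gene expression, 0.28.

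MPP-3 and MPP-4 cells were nearer to HSCs. The median log2 difference from HSCs over the 41 genes was 0.47 for MPP-3, with 22 genes higher in every library (5.79% of all genes tested), and 0.33 for MPP-4, with 17 genes (11.4%). The MPP-3 value depended on the small clusters 6, 7 and 8, without which the median was 0.78. Cluster 6 held 177 cells rich in immunoglobulin transcripts, of which 97.2% were named MPP-3. In PBS replicate 2 the summed B and plasma cell markers reached 202790 CPM of the MPP-3 class. The MPP-4 value was 0.15 among cells of 3000 to 5000 UMIs. MPP-2 cells stood above MPP-3 cells by a median of 0.32 with 15 genes higher in every library (18.4%), and above MPP-4 cells by 0.68 with 25 genes (10.1%). The first of these was 0.12 without clusters 6, 7 and 8 and 0.65 among cells of 3000 to 5000 UMIs.

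**Figure D2:**
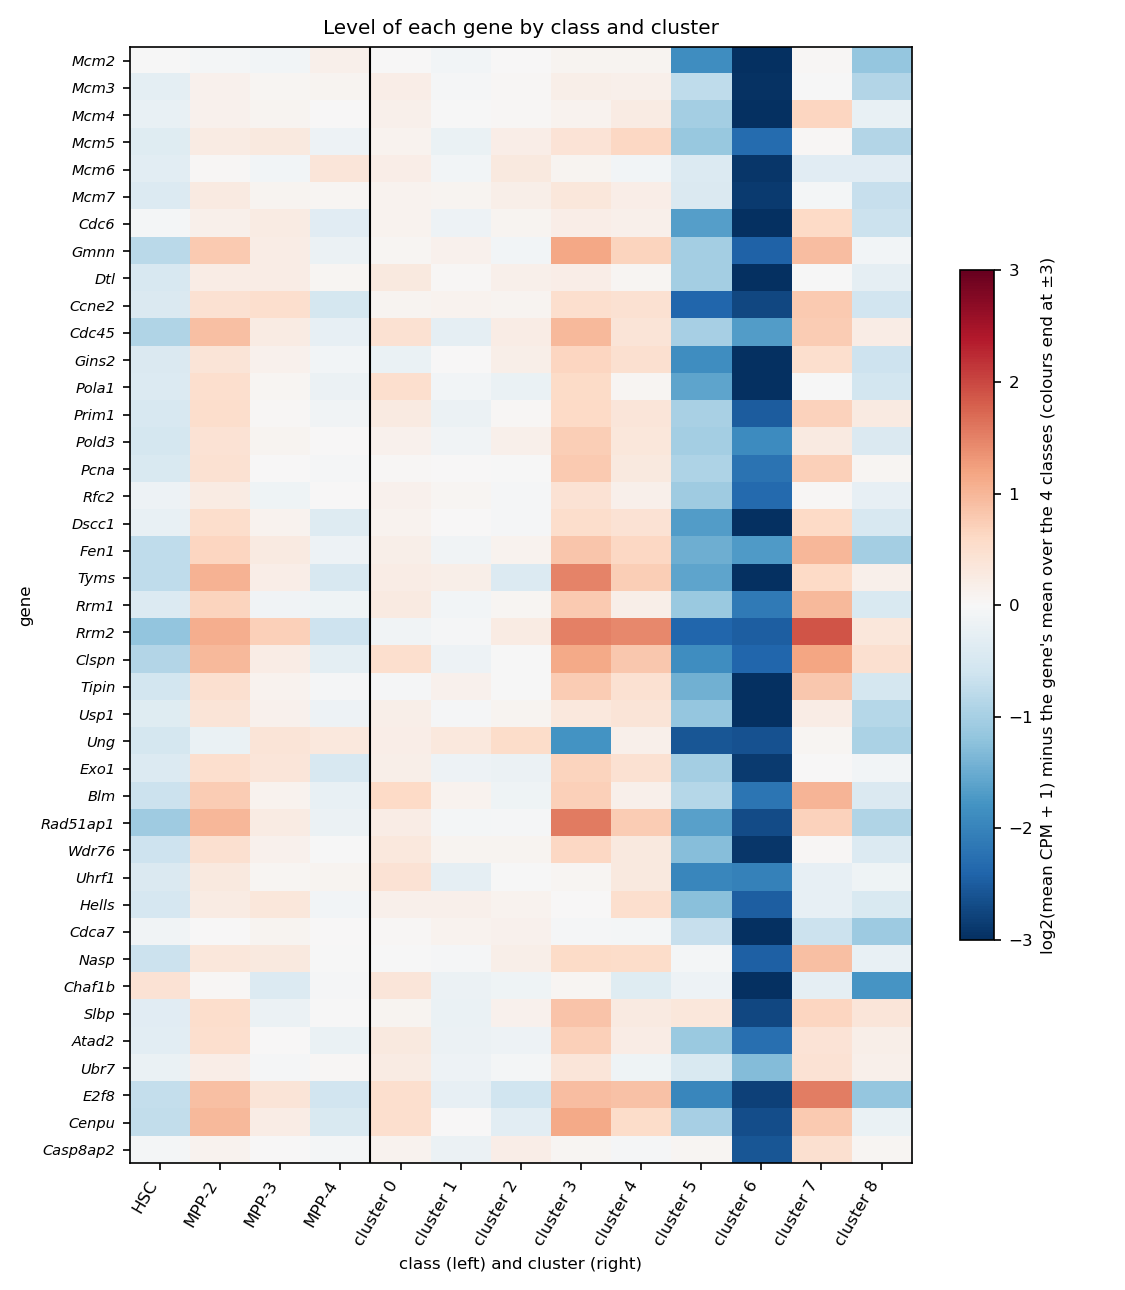
Colour gives, for each of the 41 genes (rows), log2(mean CPM + 1) over libraries in each class or cluster, less the mean of that gene over the 4 classes. The HSC column and those of clusters 5 and 6 are mostly blue, MPP-2 and cluster 3 mostly red, and Ung is blue in cluster 3, at 0 to 12.0 CPM per library.

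Across the 9 clusters of the authors' table the summed level of the 41 genes ran from 378 ± 123 CPM in cluster 6 (SD, n = 3) to 3934 ± 452 in cluster 3 (n = 5). Cluster 3 held 1445 cells, 81.4% named MPP-2, with 39.7% called S and 58.0% called G2M. Cluster 7 (3496 ± 619, n = 3) and cluster 4 (3254 ± 406, n = 5, 68.3% MPP-3) came next and overlapped cluster 3. Clusters 0, 2 and 1 stood at 2849 ± 433, 2621 ± 619 and 2542 ± 262 CPM (n = 5) with overlapping ranges, though cluster 0 was above cluster 1 in all 5 libraries. Cluster 8 was at 2050 ± 173 (n = 3).

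Cluster 5 stood out by low levels of the 41 genes beside mitotic transcripts. Its 339 cells came from all 4 classes, 2.36% were called S and 53.4% G2M, and the 41 genes summed to 1318 ± 90.0 CPM (SD, n = 4), below the lowest library of clusters 0 to 4. Summed markers of mitosis and G2 were at 1136, 1052 and 1016 CPM in the cluster 5 cells of PBS and 1088 CPM in those of AML replicate 3. In cluster 0 of the same libraries they were lower, at 973, 1001, 864 and 906 CPM. Rrm2 was at 9.28, 0 (0 UMIs) and 15.4 CPM in the cluster 5 cells of PBS and at 6.75 CPM in those of AML replicate 3, against 62.1, 36.5, 21.9, 45.6 and 43.8 CPM in cluster 0 in the 5 libraries. These ranges did not overlap. Within each of the 4 libraries with at least 20 cells of both clusters (AML replicate 1 had 12 cells of cluster 5), 37 of the 41 genes were lower in cluster 5 than in cluster 0, as were 25.1% of all genes tested. The others, picked out after their values were seen, were Mcm6, lower in 3 libraries, Slbp and Casp8ap2, lower in 2, and Nasp, lower in 1. Slbp was at 72.4, 278, 56.6 and 98.0 CPM in cluster 5 against 119, 139, 75.3 and 86.8 CPM in cluster 0 of the same libraries, and Nasp was at 59.4 to 74.3 CPM against 58.7 to 79.4 CPM. The median mitochondrial share of UMIs per cell in cluster 5 was 0.837% to 1.13%, within the range of cluster 0.

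Ung departed from the other members within cluster 3. It was at 12.0, 10.7 and 5.69 CPM in PBS, 0 UMIs in AML replicate 1 and 9.74 CPM in AML replicate 3, while in clusters 0, 1 and 2 it was at 22.7 to 50.5 CPM in PBS and 16.7 to 59.5 CPM in AML. No library of cluster 3 reached any library of those clusters. Rrm2, by contrast, was at 225, 118 and 99.6 CPM in PBS and 78.2 and 138 CPM in AML in cluster 3.

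The authors called a phase for every cell from genes of this kind, so a higher level in S calls follows from the call and is no result. The sizes still describe the order of the genes. Every member was higher in S than in G1 calls in 5 of 5 libraries, with ratios of the mean levels from 2.00 for Rfc2 to 27.0 for Rrm2. Rad51ap1 (20.5), Clspn (17.1), Ccne2 (13.5), Exo1 (11.5) and E2f8 (11.1) followed Rrm2. Between S and G2M calls the members differed in how far they declined. Ung was at 94.2, 96.2 and 57.1 CPM in S calls of PBS and 60.5 and 80.1 CPM in those of AML, and at 5.54, 2.93, 2.60, 6.84 and 4.43 CPM in the G2M calls of the same libraries, a ratio of 0.0573. It was lower in G2M than in G1 calls, where it was at 11.1 to 20.1 CPM. Ccne2 (0.197), Cdc6, Dscc1 and Uhrf1 had the next lowest ratios. Blm was at the other end with 0.906 and was not lower in G2M than in S calls in 1 of 5 libraries, and Cenpu, Rrm1 and E2f8 kept ratios of 0.83 to 0.86.

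**Figure D3:**
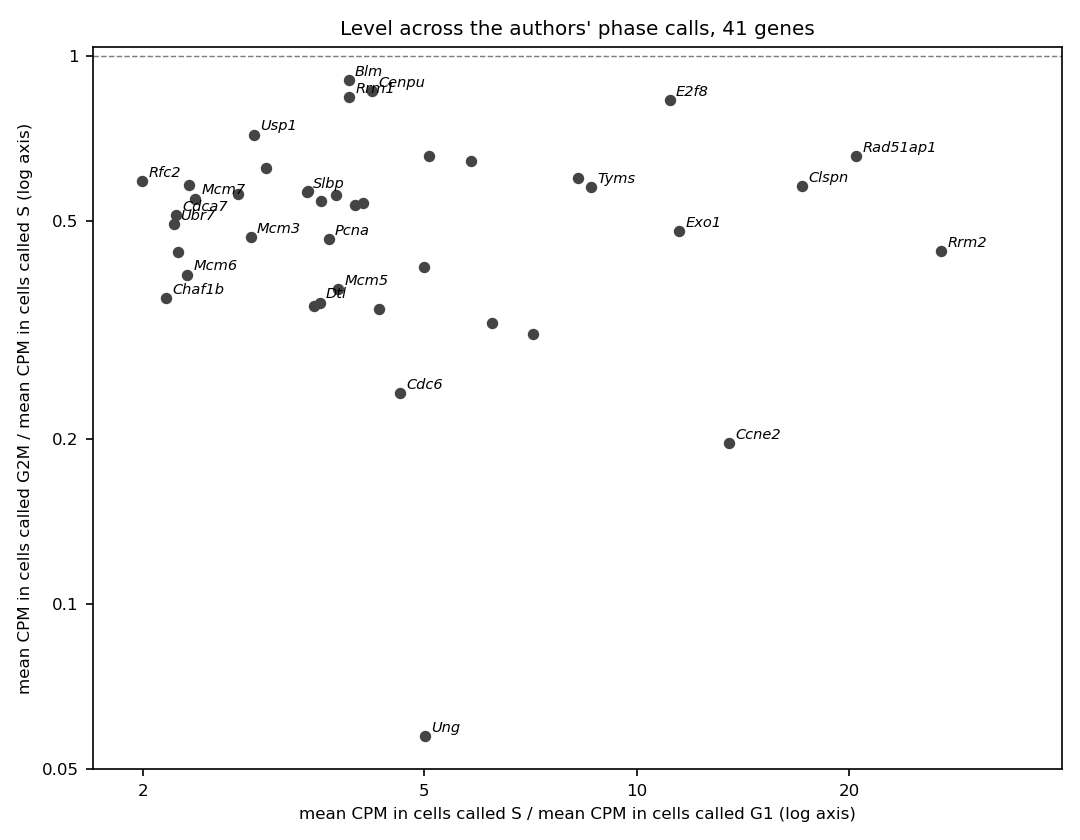
Each point is 1 of the 41 genes. The x axis is the mean CPM in cells called S over that in cells called G1, the y axis the mean CPM in cells called G2M over that in cells called S, both on log axes. Rrm2 is farthest right at 27.0, Ung lowest at 0.0573 and Blm highest at 0.906.

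At the level of single cells the members were sparse. After each cell was thinned to 2000 UMIs, a cell held on average 3.13 of the 41 genes in HSCs (SD 0.866, n = 5), 3.88 in MPP-4 (0.850), 4.60 in MPP-3 (0.979) and 5.92 in MPP-2 cells (0.439). It held 0.527 in cluster 6, where 69.1% of cells had none, and 3.02 in cluster 8, where 5.30% had none (n = 3 each). Immunoglobulin transcripts take up part of the 2000 UMIs of a cluster 6 cell. Its low value was therefore not read as a background level for the classes. Rrm2 was detected in 3.11% ± 3.22 of thinned HSCs (SD, n = 5), 14.6% ± 5.33 of MPP-2, 10.0% ± 4.51 of MPP-3 and 3.73% ± 1.52 of MPP-4 cells, against 0.565% ± 0.979 of cluster 6 cells (n = 3). Without thinning the shares were 5.49%, 35.8%, 21.9%, 8.10% and 5.70%. Tyms was detected in 10.4% ± 4.27 of thinned HSCs and 31.3% ± 3.82 of MPP-2 cells, against 3.70% ± 2.69 in cluster 6. Ung in cluster 3 was seen in 1.64% ± 1.34 of thinned cells and 5.52% ± 3.84 of cells without thinning, close to the unthinned 3.97% ± 0.897 of cluster 6 and below the 13.4% ± 5.92 of all LSK cells. Median depth by library was 2801 to 18231 UMIs per cell in cluster 6 and 2548 to 16443 in cluster 3.

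Whether leukemia changed the level of these genes was asked on UMIs summed per library, with edgeR's quasi-likelihood test over all genes and Benjamini-Hochberg adjustment. In such sums a change in the number of replicating cells and a change in RNA per cell cannot be told apart. No member passed at an adjusted p of 0.05 in all LSK cells (0 of 41), where 23 of 14364 genes did, or 0.16%. DESeq2 and limma-voom also passed 0 of 41. At an unadjusted p under 0.05 there were 6 members, or 14.6%, against 10.5% of all genes. The fitted difference was above 0 for 27 members and below 0 for 14, where 53% of all genes were below, with a median of 0.19 on the log2 scale against −0.03 over all genes. In 9 members both AML libraries lay above all PBS libraries and in 4 below them, where the shares over all genes were 14.6% and 17.4%.

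The 6 members under an unadjusted p of 0.05 shared 1 pattern over libraries. Wdr76, a WD-repeat protein linked to the DNA damage response (chromosome 2, 121506723 to 121544860 of GRCm38, plus strand), was at 60.3, 37.8 and 55.2 CPM scaled by TMM factors in PBS and at 139 and 65.3 CPM in AML, and every CPM beside a test is scaled in this way. Its log2 fold change was 0.97 ± 0.30 (SE), with an edgeR adjusted p of 0.286. Hells, a chromatin remodeler needed for DNA methylation, was at 70.5, 67.2 and 97.9 CPM in PBS and 185 and 103 CPM in AML (0.86 ± 0.28, edgeR adjusted p 0.309). In both genes AML replicate 1 stood far above the others and AML replicate 3 just above the highest PBS library. Blm was at 27.8, 18.4 and 29.2 CPM in PBS and 53.2 and 32.0 CPM in AML (0.70 ± 0.27, edgeR adjusted p 0.400). Ccne2 was at 18.7, 21.8 and 18.0 CPM in PBS and 44.4 and 21.9 CPM in AML (0.68 ± 0.28, edgeR adjusted p 0.420). Uhrf1, which reads hemimethylated DNA, was at 15.9, 21.0 and 21.0 CPM in PBS and 34.1 and 26.3 CPM in AML (0.61 ± 0.23, edgeR adjusted p 0.384). Pola1, the catalytic subunit of polymerase alpha, was at 98.4, 76.0 and 96.9 CPM in PBS and 162 and 105 CPM in AML (0.55 ± 0.25, edgeR adjusted p 0.473). In all 6 the AML libraries lay above the PBS libraries, by a wide gap in replicate 1 and a small one in replicate 3.

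Among the members with the lowest fitted differences, Chaf1b was at 40.5, 55.2 and 33.9 CPM in PBS and 27.4 and 31.6 CPM in AML (−0.53 ± 0.25, edgeR adjusted p 0.479). Rfc2 was at 210, 214 and 175 CPM in PBS and 109 and 178 CPM in AML (−0.46 ± 0.27, edgeR adjusted p 0.549). Chaf1b was lower in both AML libraries without overlap, while for Rfc2 AML replicate 3 lay within the PBS range. Cenpu was at 22.2, 23.1 and 21.1 CPM in PBS and 13.4 and 20.9 CPM in AML (−0.28), below PBS in both AML libraries but barely so in replicate 3. Slbp was at 113, 158 and 88.0 CPM in PBS and 98.1 and 99.9 CPM in AML (−0.27), inside the PBS range. Prim1, the primase, was at 47.3, 57.7 and 45.1 CPM in PBS and 42.3 and 44.2 CPM in AML (−0.20), below PBS by less than the spread of PBS. Leaving out AML replicate 3 or AML replicate 1 gave −0.87 and −0.15 for Rfc2 and −0.72 and −0.07 for Cenpu. Leaving out PBS replicate 3 or PBS replicate 2 gave −0.43 and −0.0083 for Slbp, −0.66 and −0.30 for Chaf1b and −0.26 and −0.075 for Prim1.

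The MCM subunits overlapped between the groups apart from AML replicate 1. Mcm2 was at 25.1, 30.8 and 32.7 CPM in PBS and 47.0 and 31.6 CPM in AML. Mcm5 was at 32.4, 39.3 and 34.3 CPM in PBS and 56.8 and 33.6 CPM in AML. Mcm7 was at 76.2, 136 and 94.6 CPM in PBS and 194 and 97.7 CPM in AML. For these 3 and for Mcm6 (104, 116 and 93.1 against 133 and 102 CPM) AML replicate 1 was highest and AML replicate 3 lay within the PBS range. Mcm3 was at 68.7, 66.8 and 57.2 CPM in PBS and 70.7 and 62.4 CPM in AML, with AML replicate 1 above the highest PBS library by less than the spread of PBS. Mcm4 was at 78.8, 49.0 and 66.9 CPM in PBS and 62.5 and 69.4 CPM in AML, both within the PBS range. The fitted differences ran from 0.03 for Mcm4 to 0.49 for Mcm7.

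The clamp and the nucleotide genes showed as little. Pcna was at 138, 150 and 162 CPM in PBS and 142 and 143 CPM in AML. Tyms was at 144, 137 and 149 CPM in PBS and 141 and 144 CPM in AML. In both, all AML values fell within the PBS range, and the fitted differences were −0.07 ± 0.23 and −0.01 ± 0.23. Rrm1 was at 33.6, 45.4 and 44.7 CPM in PBS and 66.1 and 40.2 CPM in AML, with replicate 1 above PBS and replicate 3 inside its range. Rrm2 was at 73.2, 55.3 and 42.1 CPM in PBS and 66.6 and 77.3 CPM in AML, overlapping PBS in replicate 1 and above it in replicate 3.

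**Figure D4:**
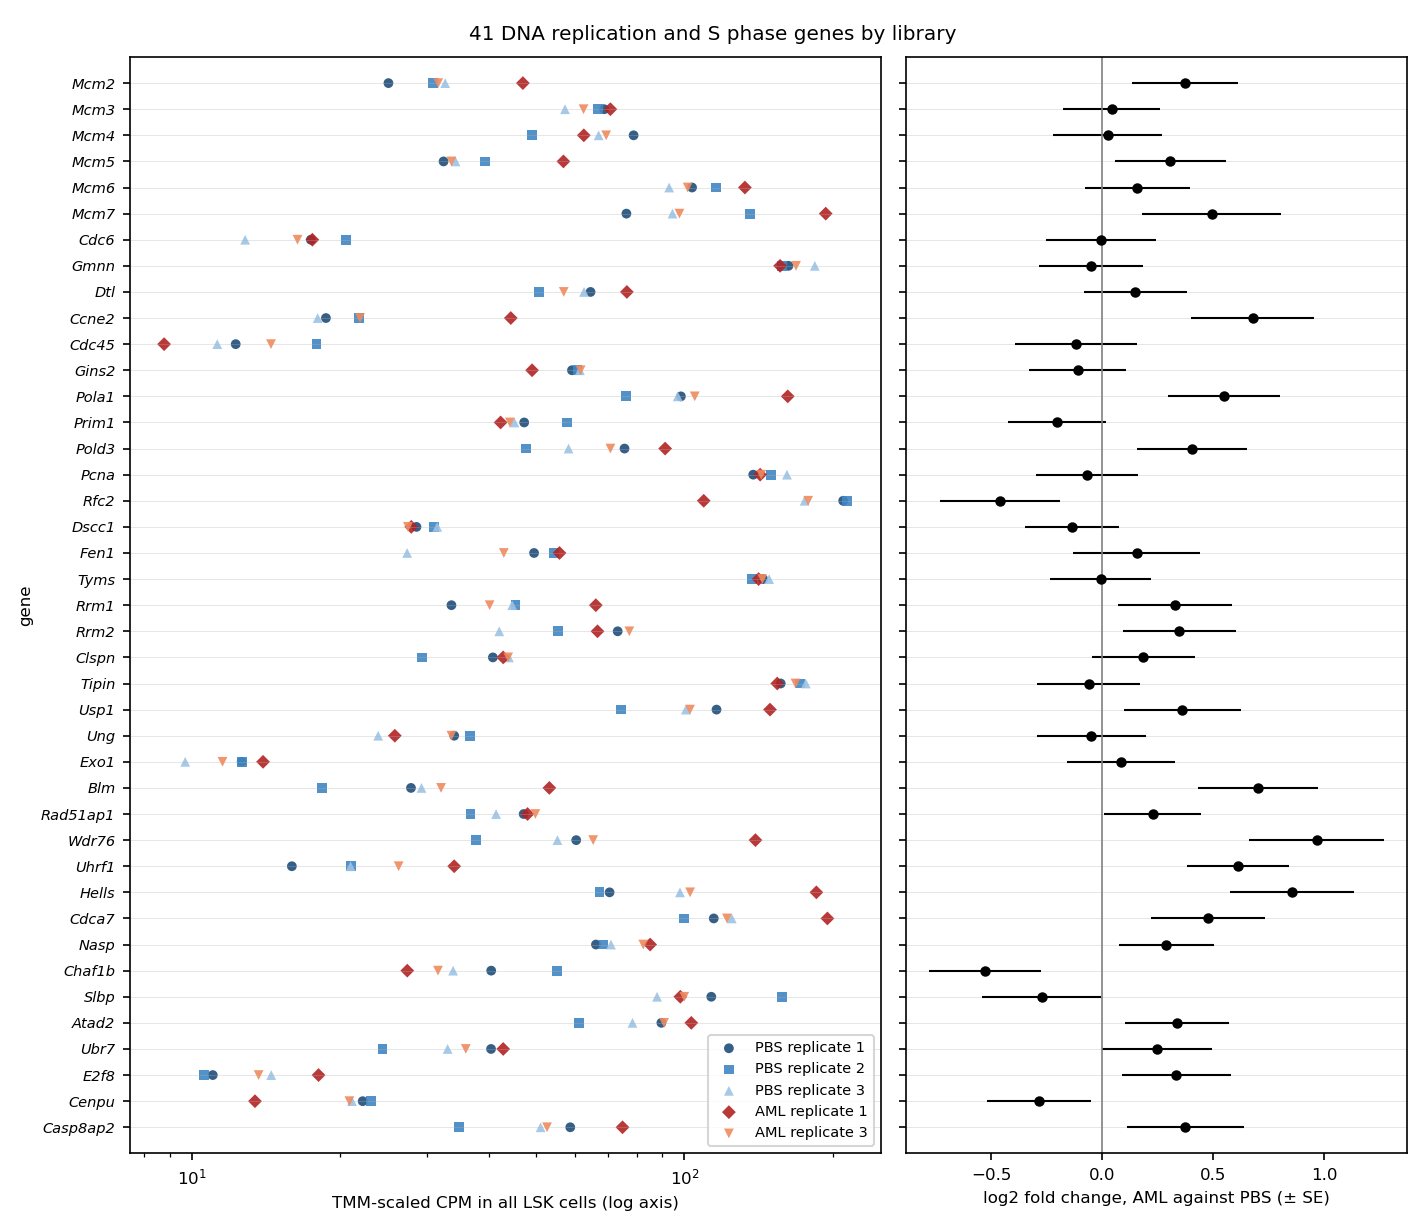
Left, TMM-scaled CPM of each of the 41 genes in all LSK cells, by library, on a log axis. Right, the fitted log2 fold change of AML against PBS with its SE. AML replicate 1 (dark red diamonds) lies far from the other libraries for Wdr76, Hells and Ccne2, and the fitted values run from −0.53 for Chaf1b to 0.97 for Wdr76.

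Leaving out either AML library left the other alone against 3 PBS libraries and assumed to vary like them. Without AML replicate 1 no member was under an unadjusted p of 0.05, where 4.82% of all genes were, the median log2 fold change was 0.09, and the values were 0.36 for Wdr76, 0.40 for Hells and 0.19 for Ccne2. Blm, Uhrf1 and Pola1 were then at 0.35, 0.46 and 0.23. Without AML replicate 3, 419 of all genes passed, or 2.95%, and 3 members: Wdr76 (1.45, edgeR adjusted p 0.0200), Ccne2 (1.19, 0.0327) and Hells (1.24, 0.0337), while Blm, Uhrf1 and Pola1 were at 1.07, 0.83 and 0.84. The share of cells called S or G2M was 43.4%, 41.8% and 44.1% in PBS, and in AML 85.3% (replicate 1) and 51.0% (replicate 3). S calls alone made up 24.2%, 23.4% and 24.2% in PBS and 32.9% and 26.9% in AML. G2M calls made up 19.3%, 18.3% and 19.9% in PBS and 52.4% and 24.1% in AML. The phase was called from genes of this kind, so these shares are not independent of the levels. The 10 markers of mitosis and G2 summed to 868, 789 and 816 CPM in PBS and to 1455 and 854 CPM in the AML replicates 1 and 3. The rise in AML replicate 1 was uneven among them. Top2a was at 276, 238 and 274 CPM in PBS and at 759 and 301 CPM in AML. Mki67 and Ccnb1 were also highest in AML replicate 1, while Ccnb2, at 140 CPM there, lay within its PBS range (139 to 161 CPM). The part of these calls and markers in the differences was not tested. Depth was lowest in AML replicate 1. With every cell thinned to 2000 UMIs, 0 members passed, 33 were above 0, the median was 0.32 against 0.01 over all genes, and 9 members were under an unadjusted p of 0.05, where 10.5% of all genes were. The mix of classes moved too: MPP-3 cells made up 32.9% and 22.3% of AML replicates 1 and 3, against 11.6%, 4.39% and 9.60% of the PBS libraries. With the classes weighted equally in each library, the median was 0.12, 24 members were above 0 and 3 had an unadjusted p under 0.05 (8.12% of all genes), and Wdr76 had a log2 fold change of 0.79 (edgeR adjusted p 0.565). For this fit the averaged class profiles were scaled back to the UMI total of each library. The 23 HSCs of AML replicate 1 thus counted beyond their own depth, which the p values of this fit do not allow for.

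Within classes no member passed in any of the 4 edgeR fits, nor with DESeq2 or limma-voom. In the edgeR fits 0.178% of genes passed for HSCs, 0.0399% for MPP-2, 0.0486% for MPP-3 and 0.0325% for MPP-4. The signs of the fitted differences differed by class. Above 0 were 9 of 41 members for HSCs, 14 for MPP-2, 29 for MPP-3 and 32 for MPP-4, where the shares of all genes below 0 were 53.1%, 52.1%, 51.4% and 52.2%. The medians were −0.13, −0.11, 0.18 and 0.21. Cluster 4, of which 68.3% of cells were named MPP-3, held 77 of 693 and 379 of 3959 cells in AML. In PBS it held 197 of 6838, 23 of 934 and 150 of 4398 cells. The part of this shift in the MPP-3 values was not tested. With library size alone in place of TMM factors, 21 members were above 0 in HSCs and their median was 0.03, while the median over all genes moved from −0.03 to 0.12. By DESeq2 18 members were above 0 with a median of −0.05, against −0.07 over all genes, and by limma-voom 19 with a median of −0.0078, against 0.01. Without AML replicate 3 the edgeR medians were −0.05 and −0.50, so that no place of the members relative to all genes was read for HSCs. At an unadjusted p under 0.05 were 0 members in HSCs, 2 in MPP-2 (Wdr76 0.65 and Chaf1b −0.61), 3 in MPP-3 (Wdr76 1.02, Hells 0.80 and Uhrf1 0.74) and 6 among MPP-4 cells, against 4.16%, 7.56%, 7.39% and 5.93% of all genes. The 6 in MPP-4 were Wdr76 (0.91), Uhrf1 (0.81), Blm (0.66), Hells (0.65), Atad2 (0.49) and Pola1 (0.48). Both AML libraries lay above all PBS libraries for 2, 1, 11 and 12 members in the order of the classes, and below for 8, 10, 0 and 1. Over all genes the shares were 11%, 14.1%, 12% and 13.2% above and 16.3%, 14.8%, 12.6% and 14.5% below. Without AML replicate 1 the medians were −0.18, −0.12, 0.12 and 0.10 in the same order, with 10, 15, 35 and 29 members above 0, and 0, 0, 1 and 2 had an unadjusted p under 0.05, where 3.26%, 3.1%, 3.47% and 3.52% of all genes had.

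The difference between classes was tested itself, as the class-by-treatment terms together with HSCs as the reference and a term for each library. These terms passed for 116 of 12734 genes (0.911%) and for 1 of the 41, Wdr76, with an edgeR adjusted p of 0.0493. In HSCs Wdr76 was at 44.8, 32.2 and 44.1 CPM scaled by TMM factors in PBS and at 40.6 (3 UMIs) and 35.8 CPM in AML. In MPP-3 cells it was at 52.6, 37.6 and 42.7 CPM in PBS and 133 and 60.9 CPM in AML, and in MPP-4 cells at 48.4, 30.7 and 43.6 CPM in PBS and 118 and 58.5 CPM in AML. The groups overlapped in HSCs and separated in MPP-3 and MPP-4 cells. In MPP-2 cells the values were 83.1, 51.4 and 72.2 CPM in PBS and 143 and 80.0 CPM in AML, with AML replicate 3 inside the PBS range. Relative to HSCs the AML effect was larger by 0.73 in MPP-4, 0.74 in MPP-3 and 0.38 in MPP-2 cells on the log2 scale. The call sat at the threshold: it held without the filter on low counts (edgeR adjusted p 0.00956) and without clusters 6, 7 and 8 (0.0496), and it was lost with library size alone (0.216), in cells thinned to 2000 UMIs (0.354) and on leaving out any 1 of the 5 libraries (0.0646 to 0.387). The MPP-4 value relative to HSCs was 0.66 with library size alone, 0.91 in thinned cells and 0.68 without AML replicate 1, and that of MPP-3 was 0.66, 0.49 and 0.67. Without AML replicate 3 they were 1.53 and 1.59, in a fit where the medians over all genes were 0.42 and 0.51.

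At an unadjusted p under 0.05 the terms held 15 of the 41 members (36.6%), against 10.9% of all genes. The effect of AML was above that in HSCs for 38 of 41 members in MPP-3, 38 in MPP-4 and 26 in MPP-2, where 51%, 52.1% and 50.5% of all genes were, with medians of 0.36, 0.30 and 0.03. With library size alone the counts were 36, 36 and 14, against 44.2%, 42.5% and 38.9% of all genes, and the MPP-2 median was −0.04, so no direction was read for MPP-2. All 3 contrasts use the same HSC sums, so they are not separate results. Leaving out AML replicate 1 gave 36, 37 and 28 members above 0, against 49.9%, 51.5% and 49.6% of all genes, and 15 at an unadjusted p under 0.05 (11.4% of all genes). Leaving out AML replicate 3 gave 23, 27 and 18 members, where 64.2%, 64.1% and 66.0% of all genes were above 0, so that the members' shares were near or below the background, and 8 at an unadjusted p under 0.05 (9.17% of all genes). The HSC value of AML then rested on 23 cells.

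Mcm4 had the next lowest p (edgeR adjusted p 0.0545). It was at 72.5, 50.5 and 66.3 CPM in the HSCs of PBS and 40.6 (3 UMIs) and 43.8 CPM in those of AML, with both AML libraries below PBS. In MPP-4 cells it was at 72.1, 53.3 and 66.4 CPM in PBS and 48.4 and 78.2 CPM in AML, and in MPP-3 cells at 80.7, 48.6 and 68.8 against 55.7 and 71.2 CPM, with the groups overlapping. In MPP-2 cells it was at 89.7, 50.3 and 68.8 CPM in PBS and 66.8 and 63.8 CPM in AML, again overlapping. The effect relative to HSCs was larger by 0.81 in MPP-4, 0.61 in MPP-3 and 0.41 in MPP-2 cells. Without AML replicate 3 it was 0.26 for MPP-4 and 0.36 for MPP-3, below the medians over all genes of that fit, with an edgeR adjusted p of 0.954. Gins2, a subunit of the GINS complex, followed (edgeR adjusted p 0.0966). It was at 40.6, 36.0 and 34.8 CPM in the HSCs of PBS and 54.1 (4 UMIs) and 32.4 CPM in those of AML, and at 80.4, 87.8 and 80.6 against 42.4 and 68.5 CPM in MPP-2 cells. In MPP-2 cells both AML libraries lay below PBS, while in HSCs they lay on either side of it. In MPP-3 cells it was at 56.4, 72.9 and 57.7 against 45.2 and 69.1 CPM, and in MPP-4 cells at 48.0, 48.8 and 50.8 against 56.5 and 52.2 CPM, above PBS in both AML libraries.

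**Figure D5:**
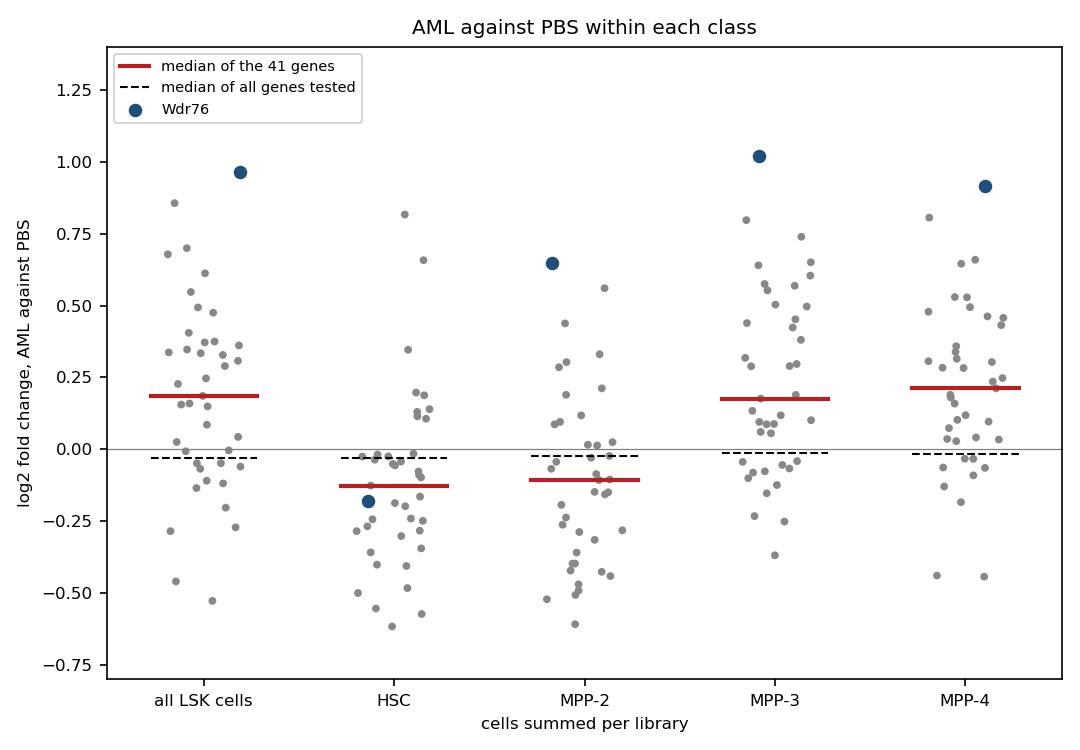
Each grey point is the fitted log2 fold change of AML against PBS of 1 gene, for all LSK cells and for each class, with the median of the 41 genes in red and that of all genes tested dashed. The medians of the 41 genes are −0.13 for HSCs, −0.11 for MPP-2, 0.18 for MPP-3 and 0.21 for MPP-4, the HSC value being 0.03 with library size alone, where that of all genes was 0.12, and Wdr76 (blue) is below 0 in HSCs alone.

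The same comparison was made within clusters 0 to 4. No member passed in any edgeR fit (0.0407%, 0.155%, 0.199%, 0.156% and 0.522% of genes did). The medians of the fitted differences were 0.11, 0.25, 0.28, −0.16 and 0.06, and 4, 8, 6, 1 and 3 members had an unadjusted p under 0.05, against 8.44%, 7.67%, 5.85%, 4.2% and 5.34% of all genes. In the S- and G2M-rich cluster 3 the median was thus below 0. Without AML replicate 1 the medians were −0.08, 0.20, 0.11, −0.12 and 0.02, with 0, 2, 1, 0 and 0 members under 0.05, where the shares of all genes were 3.86%, 3.78%, 3.19%, 2.54% and 3.64%. Without AML replicate 3 Wdr76 passed in clusters 0, 1 and 2, where 1.14%, 4.3% and 0.941% of all genes passed, and in cluster 1 so did Ccne2, Blm and Hells, which were higher, and Rfc2, which was lower.

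Another 64 replication genes outside the list, among them origin recognition subunits, further polymerase subunits and E2F-family genes, were examined in the same fits. None of the 64 passed in all LSK cells or in any class by edgeR (6 of the 64 could not be tested in HSCs), and 8 had an unadjusted p under 0.05 in all LSK cells, where 10.5% of all genes had, with a median log2 fold change of 0.15 against −0.03 over all genes. The lowest p belonged to Prim2, the regulatory primase subunit, at 40.5, 35.2 and 35.3 CPM in PBS and 87.8 and 54.1 CPM in AML (0.91 ± 0.24, edgeR adjusted p 0.206). Ticrr, which helps to fire origins, was at 7.80, 6.26 and 8.50 CPM in PBS and 15.0 and 12.0 CPM in AML. Mcmbp, an MCM-binding protein, was at 73.7, 49.8 and 59.3 CPM in PBS and 138 and 79.0 CPM in AML. In these genes, as in Wdr76, both AML libraries lay above PBS and replicate 1 was the highest. The class-by-treatment terms passed for 2 of the 64, where 0.911% of all genes passed: Ccna2, the S phase cyclin A2 (edgeR adjusted p 0.0113), and Tk1, thymidine kinase (0.0410). At an unadjusted p under 0.05 were 17 of the 64 (26.6%), against 10.9% of all genes. The AML effect was above that in HSCs for 46 in MPP-3, 45 in MPP-4 and 29 in MPP-2, where 51%, 52.1% and 50.5% of all genes were. Without AML replicate 3 these counts were 36, 38 and 31, against 64.2%, 64.1% and 66.0% of all genes. Ccna2 was at 18.9, 11.0 and 14.2 CPM in the MPP-3 cells of PBS and 54.2 and 30.7 CPM in those of AML, without overlap, and in HSCs at 5.83, 3.79 and 3.22 against 27.0 and 2.95 CPM, on either side of PBS. Tk1 was at 86.6, 99.4 and 76.7 CPM in the MPP-3 cells of PBS and 64.8 and 132 CPM in those of AML, again on either side, and in HSCs at 43.0, 25.3 and 35.4 against 13.5 and 30.3 CPM. Neither call held without PBS replicate 1 or without PBS replicate 3, where the MPP-3 effect relative to HSCs was 1.09 and 1.404 for Ccna2 (1.29 with all libraries) and 0.74 and 0.90 for Tk1 (0.94). Without AML replicate 3 the call of Tk1 was lost at a value of 1.09, and the value of Ccna2 turned to −0.84. Of the 56 with a promoter entry, 19 (33.9%) held an E2F word.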

How the data were processed

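Droplet libraries (Chromium GEM V3) of sorted host LSK cells were made from 3 PBS and 3 AML samples. The authors deposited raw UMI counts per gene and cell barcode for each library and 1 cell table. The submitters' processing notes name Cell Ranger 7.0.1, Seurat 4.3.0 and R 4.2.2 with the GRCm38 (mm10) build, and no source used here says how doublets were treated. From the table the cell names, class, cluster and phase were used. Its percent values per cell, scores and the rest, 11 columns as deposited by the authors, were not used, and the signatures behind class, cluster and phase are not given there. The table holds no cell of AML replicate 2, so the planned 3 against 3 became 3 against 2.

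UMI counts were summed per library and class (20 cells or more) and tested with edgeR 4.0.16 in R 4.3.3 (quasi-likelihood, TMM factors, filterByExpr, Benjamini-Hochberg over all genes tested, threshold 0.05), with the library as the replicate. DESeq2 1.42.0, limma-voom (limma 3.58.1), library size alone, no filter, a replicate block, cells thinned to 2000 UMIs, clusters 6, 7 and 8 left out, the top 5% of cells by UMIs left out, equal class composition, an own filter on the barcodes of all 6 libraries (1000 genes or more, mitochondrial share of UMIs under 10%) and each library left out were the alternatives. No doublet caller was run. CPM in class, cluster and phase levels is per 1000000 UMIs of the summed cells, and CPM beside a test is scaled by TMM factors. The scripts were tested on simulated data. The precision rests on UMI depth, from 1945659 to 32123508 UMIs per library, and binomial intervals cover counting error only.

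The members and gene lists were chosen with earlier results of these data known. Values in every library are given for members called in any fit, the 5 highest and 5 lowest fold changes over all LSK cells, the MCM, clamp and nucleotide genes, the 3 lowest p for the class-by-treatment terms, and the 3 largest and 3 smallest differences between MPP-2 and HSC. Tyms, Mcm6 and the values in clusters and phases were named after seeing them. The fits within clusters, the cells of 3000 to 5000 UMIs and the class-by-treatment fit without clusters 6, 7 and 8 were added after seeing the data. Promoters came from RefSeq (GRCm38.p6).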

Additional observations from a re-analysis of the deposited data

Results flagged for a closer look

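In groups of 5 libraries a value far from the other 4 marked 3 shares of cells called S or G2M, each highest in AML replicate 1. They were 85.3% of all LSK cells (other libraries 41.8% to 51.0%), 43.5% of HSCs (10 of 23 cells) and 71.8% of MPP-4 cells. The gap to the nearest library took 0.788, 0.879 and 0.799 of the range, above the critical 0.71. Chance marks about 1 in 20 such groups, and 10 were examined, the summed level of the 41 genes in the same cells being among those not marked. Of all LSK cells in AML replicate 1, 52.4% were called G2M and 32.9% S. In the other libraries the shares were 18.3% to 24.1% G2M and 23.4% to 26.9% S.

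The effect of AML on Wdr76 differed between classes by the class-by-treatment terms of edgeR (adjusted p 0.0493, 3 PBS and 2 AML libraries). It was larger than in HSCs by 0.74 in MPP-3 and 0.73 in MPP-4 on the log2 scale. The call did not hold when any 1 library was left out.

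AML replicate 2 had no cell in the authors' table and was used in no class comparison. By an own filter 106 of its barcodes passed, with 306059 UMIs, and the 41 genes summed to 3323 CPM there. By the same filter the PBS libraries stood at 3041, 2737 and 2536 CPM, AML replicate 1 at 3458 and AML replicate 3 at 2908 CPM.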

How the results depend on the processing

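Of 565 values recomputed under an alternative, 481 kept their direction and their side of the threshold, or moved by less than the replicate spread. In all LSK cells 1 member passed without the filter on low counts (Wdr76), and 0 to 3 on leaving out 1 library, the 3 without AML replicate 3. Over all genes 23 passed, against 79 by DESeq2, 392 without the filter, 6 with equal class composition, 75 with the own filter on all 6 libraries, and 2 (without PBS replicate 1) to 419 (without AML replicate 3) on leaving out 1 library. Within classes the genes passing over all alternatives ran from 0 to 29 in HSCs, 0 to 156 in MPP-2, 2 to 166 in MPP-3 and 0 to 75 in MPP-4, and members only in MPP-3, 0 to 1 (Wdr76, without AML replicate 3). Within clusters, leaving out 1 AML library gave 0 to 1 members in cluster 0 (5 to 142 of all genes), 0 to 5 in cluster 1 (20 to 496) and 0 to 1 in cluster 2 (9 to 109). For the class-by-treatment terms 0 members passed with library size alone, 8 without the filter, 1 in thinned cells (Rrm2, not Wdr76) and 0 to 2 on leaving out 1 library (Rrm2 and Mcm4 without PBS replicate 2), while 116 genes overall became 506 without the filter, 233 without clusters 6, 7 and 8, and 29 to 189 on leaving out 1 library. The median class difference of MPP-3 from HSC was 0.83 in thinned cells and 0.78 without clusters 6, 7 and 8, that of MPP-4 from HSC 0.15 and that of MPP-2 from MPP-3 0.65 in cells of 3000 to 5000 UMIs. Leaving out 1 library gave log2 fold changes of −0.053 to 0.69 for Mcm5, −0.048 to 0.93 for Mcm7 and −0.018 to 0.69 for Rrm1, the values below 0 without AML replicate 1, and an MPP-3 minus HSC effect of −0.88 (without AML replicate 3) to 0.50 for Gins2. Where a fold change was within 1 SE of 0, no direction was read from it. The cause of these shifts was not tested.

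The replicate numbers are only numbers: deviations of same-numbered libraries correlated at −0.0574 and −0.0547. With the replicate block 91 genes passed in all LSK cells and 0 members. Cell number limits the HSC comparison, since AML replicate 1 gave 23 HSCs.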
